A study of Mus musculus with 12 samples.

Results

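Livers that had recovered from carbon tetrachloride (CCl4) for 4 weeks under hADMSCs-Exo, exosomes of human adipose mesenchymal stem cells, were compared with livers taken at the end of the CCl4 course. The comparison was made across all genes and holds 6 of the 12 samples of the series, 3 of the hADMSCs-Exo group and 3 of the liver fibrosis group (LFG), chosen by their labels. All mice were male C57BL/6J, bought at 6 weeks of age, and all received CCl4 at 1 mL/kg intraperitoneally, 2 times per week for 8 weeks, after 1 week of adaptation. LFG was sacrificed at that point. The hADMSCs-Exo group then received 250 µg of exosomes in 200 µl PBS through the tail vein for 4 weeks, 2 times per week. The regression group (REG) received 200 µl PBS on the same schedule. Its 3 libraries, which share the recovery but not the exosomes, are given beside many of the main results. The hADMSCs group (3 samples) was not analysed here, and no library of uninjured liver was used. The exosomes were of human cells given to mice, and the labels do not say whether the 3 replicates of a group were 3 mice, so p-values measure the spread between these samples. Between hADMSCs-Exo and LFG, the exosomes, the injections, the age of the mice and the weeks without CCl4 cannot be told apart.

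CCl4 is turned into a reactive radical by the cytochrome P450 Cyp2e1 of hepatocytes around the central vein, which die, and the surviving hepatocytes divide. Stressed cells raise chaperones, the proteins that hold and refold other proteins, in the cytosol and in the endoplasmic reticulum. Macrophages enter the injured liver, and hepatic stellate cells, the vitamin A storing cells beside the sinusoids, turn into contractile myofibroblasts that lay down collagen. After the toxin is withdrawn the scar is degraded, myofibroblasts are lost or fall back to a quiet state, and hepatocytes regain their zonal functions.

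Total counts of the 6 libraries lay between 13837445, in LFG 3, and 17261497, in LFG 1. Levels are given as log2 CPM, the base 2 logarithm of counts per unit of library depth (CPM) after TMM normalization with a prior count of 2, on which a count of 0 is -3.11. The tissue label fitted its markers: the summed level of 5 hepatocyte genes was 103343 to 140871 CPM in the 6 libraries, and 3 of 5 kidney genes were at 0 throughout. LFG 3 stood apart from LFG 1 and LFG 2. On the leading principal component of the 9 libraries, LFG 1 and LFG 2 lay at -78.9 and -55.9, LFG 3 lay at 96.8 and the hADMSCs-Exo libraries lay between 1.09 and 16.2. LFG 3 had reads on 13924 genes, while LFG 1 and LFG 2 had them on 15248 and 15100 and the hADMSCs-Exo libraries on 14586 to 14597. Mitochondrial genes took 6.24% of its counts, and 3.68% to 4.34% in the 8 other libraries. Summed CPM of 5 myofibroblast markers was 1143 in LFG 1, 515 in LFG 2 and 9.47 in LFG 3, beside 17.3 to 42.5 in hADMSCs-Exo. Summed CPM of 5 pancreatic acinar genes, of which 3 were at 0, was 26.3 in LFG 3 and 7.71 to 9.66 in the 5 others of the comparison. On these markers the library labelled LFG 3 went against its label as a liver at the end of CCl4. The part of these features in the results was not tested, so the main results are given both with all 6 libraries and without LFG 3.

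With 6 libraries, 0 of 12489 tested genes (0.0%) passed an adjusted p of 0.05 with at least 1 log2 unit of change in edgeR's quasi-likelihood test, two-sided with Benjamini-Hochberg adjustment. The smallest adjusted p was 0.144, for Serpine2, and that of every other gene was at least 0.805. At an unadjusted p under 0.05 with the same limit on fold change there were 374 genes (2.99%), of which 95 (0.761%) were higher in hADMSCs-Exo and 279 (2.23%) lower. DESeq2 called 60 genes (0.48%) in the same libraries, 21 higher and 39 lower, and limma voom with quality weights called 1. No library of one group reached into the other's range for 1530 genes (12.3%), with hADMSCs-Exo above LFG in 841 and below it in 689. Without LFG 3, edgeR called 773 of 12955 genes (5.97%), of which 190 (1.47%) were higher in hADMSCs-Exo and 583 (4.5%) lower. Leaving out any of the 5 other libraries in turn gave 0 calls, and the unadjusted count was then 221 (without hADMSCs-Exo 3) to 293, beside 1774 without LFG 3. Of the 12489 tested genes, 1082 met the filter on low counts only with the help of the group in which they were higher, so the filter itself favoured a difference. Such genes are called group-bound, their levels or counts are given without a test, and the main counts of list members that they change are also given without them. Among the 11407 others, 67 (0.587%) were higher and 204 (1.79%) lower at the unadjusted threshold, and without LFG 3 edgeR called 178 (1.49%) higher and 451 (3.77%) lower of 11963 that were not group-bound.

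The library left out shows how far each of those 773 calls extends to LFG as a group. For 151 of them (19.5%) LFG 3 lay on the side of LFG 1 and LFG 2, outside the range of the 3 hADMSCs-Exo libraries. For 156 (20.2%) it lay within that range, and for 466 (60.3%) it lay beyond hADMSCs-Exo, on the side away from LFG 1 and LFG 2. Over all 12955 genes tested without LFG 3 these shares were 26.4%, 29.2% and 44.4%. LFG 3 lay with LFG 1 and LFG 2 for 33.2% of the genes called higher in hADMSCs-Exo and for 15.1% of those called lower. Of the 60 genes that DESeq2 called in 6 libraries, 52 (86.7% of these, and 6.73% of the 773) were also called by edgeR without LFG 3. The called genes of chaperones and neutrophils fell into the first class, and those of collagens, dividing cells, scar macrophages and pericentral hepatocytes mostly into the others. Genes were read in 46 lists by function or cell type, which held 1170 entries, of which 1095 passed the filter on low counts with 6 libraries.

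**Figure D1:**
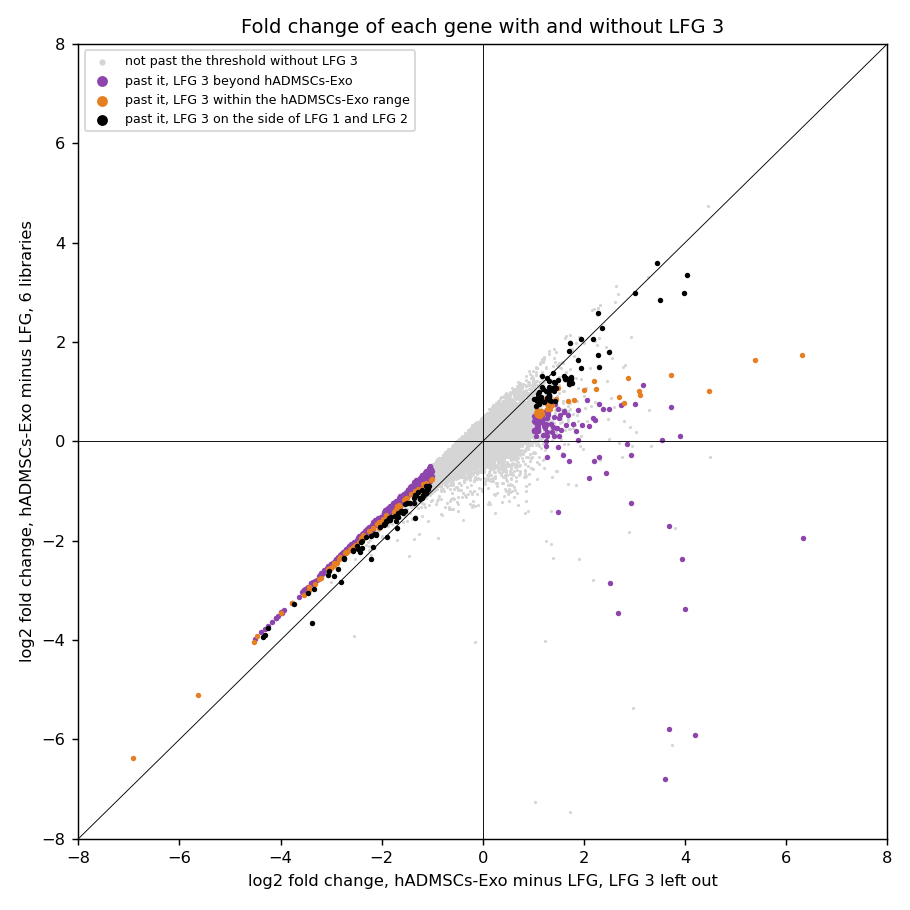
Each point is a gene tested in both fits, with the log2 fold change of hADMSCs-Exo minus LFG without LFG 3 on the horizontal axis and with all 6 libraries on the vertical axis, and the line marks equal values. Colours mark the genes past the adjusted threshold without LFG 3 by where LFG 3 lay. Genes lower in hADMSCs-Exo stay near the line, while many of those higher without LFG 3 drop to or below 0 once it is included. Nearness to the line does not place LFG 3 with its group, since a low LFG 3 shifts the LFG mean little. Gpnmb, with a count of 0 in LFG 3, went from -2.81 without LFG 3 to -2.26 with it. LFG 3 lay beyond hADMSCs-Exo for 63.3% of the genes called lower and 51.1% of those called higher.

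Genes that separated all 3 LFG libraries from all 3 hADMSCs-Exo libraries were led by Serpine2 (ENSMUSG00000026249, chromosome 1 from 79794197 to 79861180, minus strand in GRCm38), which encodes protease nexin-1, an inhibitor of thrombin and plasminogen activators. Serpine2 stood at 3.63, 3.61 and 3.61 log2 CPM in LFG 1, 2 and 3 and at 0.88, 0.99 and 0.76 in hADMSCs-Exo 1, 2 and 3. The 3 LFG libraries nearly coincided, far above hADMSCs-Exo. From here on, where levels are set against each other, LFG 1, 2 and 3 come before the word against and hADMSCs-Exo 1, 2 and 3 after it, and a value with SE in parentheses is the log2 fold change of hADMSCs-Exo minus LFG with 6 libraries. Its log2 fold change was -2.83 (SE 0.25, edgeR adjusted p = 0.144), or 7.11-fold lower, and -2.81 without LFG 3 (adjusted p = 0.00877). REG stood at 1.73, 1.68 and 1.27, between the other groups, and the test of hADMSCs-Exo against REG gave -0.73 (adjusted p = 0.474).

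Most heat shock chaperone genes had a negative log2 fold change, and for a part of them all 3 LFG libraries lay above hADMSCs-Exo. Of 24 listed and tested genes, 22 had a negative log2 fold change, with a median of -0.78, beside -0.06 over all tested genes. The groups did not overlap for 14 of them, all lower in hADMSCs-Exo, where the share over all genes was 5.52%. At the unadjusted threshold 6 were lower, beside 2.23% of all genes, and 0 higher. Without Hspa1a, which was group-bound, these counts were 21 of 23 negative, 13 without overlap and 5 lower at the unadjusted threshold. Without LFG 3 the median was -0.54 and 4 genes other than Hspa1a passed the adjusted threshold, Hspa1b, Hsph1, Hsp90aa1 and Hspa4l, and for each of the 4 LFG 3 lay with LFG 1 and LFG 2.

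Hspa1b and Hspa1a encode the inducible Hsp70, which binds unfolded proteins. Hspa1b (ENSMUSG00000090877) stood at 5.39, 6.14 and 6.17 log2 CPM in LFG and 2.92, 3.72 and 4.0 in hADMSCs-Exo, a log2 fold change of -2.36 (SE 0.35). The edgeR adjusted p of Hspa1b was 0.805 with 6 libraries and 0.0238 without LFG 3, and that of DESeq2 with 6 libraries was 1.38e-05. Hspa1a (ENSMUSG00000091971) had 79, 78 and 71 counts in LFG and 9, 7 and 2 in hADMSCs-Exo. All LFG libraries lay above all hADMSCs-Exo libraries for both genes, and REG lay at 1.81, 1.80 and 3.68 for Hspa1b, with 2 libraries below hADMSCs-Exo. The coding sequences of Hspa1a and Hspa1b are nearly the same, so their counts could have been split between them. Hsph1, an Hsp110 that recharges Hsp70, stood at 6.96, 7.28 and 6.71 in LFG and 4.76, 5.75 and 5.58 in hADMSCs-Exo (-1.61, SE 0.31). Hsp90aa1, the inducible Hsp90, stood at 8.77, 8.67 and 7.90 against 7.40, 7.21 and 7.19 (-1.25, SE 0.29). The log2 fold changes against REG were 0.90 for Hspa1b, 1.13 for Hsph1 and 0.48 for Hsp90aa1, with edgeR adjusted p of at least 0.407.

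The promoters of the pair of Hsp70 genes are shown because LFG lay above hADMSCs-Exo for both genes and heat shock factor binds a short inverted repeat. The stretches are the 250 bases before the start sites in RefSeq (GRCm38.p6), Hspa1b at chr17:34959239-34959488 and Hspa1a at chr17:34972157-34972406, both on the minus strand and printed 5′ to 3′. Capitals mark a match to GAANNTTC, the core of the heat shock element, which reads the same on both strands.
Hspa1b: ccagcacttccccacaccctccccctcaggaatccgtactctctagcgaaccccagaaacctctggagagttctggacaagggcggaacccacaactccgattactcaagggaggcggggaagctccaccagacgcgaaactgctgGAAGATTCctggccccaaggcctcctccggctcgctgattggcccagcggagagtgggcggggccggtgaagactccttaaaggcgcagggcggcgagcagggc
Hspa1a: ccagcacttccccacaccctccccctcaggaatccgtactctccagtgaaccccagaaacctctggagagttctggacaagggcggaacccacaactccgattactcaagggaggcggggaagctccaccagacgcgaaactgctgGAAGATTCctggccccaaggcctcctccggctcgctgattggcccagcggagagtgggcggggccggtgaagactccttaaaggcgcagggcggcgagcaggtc
They differ at 3 of 250 positions, and each holds 1 match, beginning 104 bases before the start site. In windows from 250 bases before to 50 bases after the start, 12 of the 20 list members found in RefSeq (60.0%) held the motif, with 9.04% of all 27025 genes with a promoter entry and 7.13% of those tested. A match is a description of these letters and not a bound site.

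Genes that answer stress of the endoplasmic reticulum were mostly on the same side. Of 25 tested genes of the unfolded protein and integrated stress response, 22 had a negative log2 fold change (median -0.50, and -0.54 without LFG 3), and for 11 hADMSCs-Exo lay below all LFG libraries, beside 5.52% of all genes. At the unadjusted threshold 4 were lower, beside 2.23% of all genes, Creld2, Hyou1, Manf and Hspa5. Creld2, a disulfide isomerase of the endoplasmic reticulum, stood at 6.11, 6.82 and 6.58 in LFG and 4.29, 4.74 and 5.26 in hADMSCs-Exo, a log2 fold change of -1.74 (SE 0.31). Hyou1, an Hsp70 relative of that compartment, stood at 7.81, 8.38 and 7.59 against 6.04, 6.55 and 6.90 (-1.45, SE 0.32). REG stood at 4.43, 4.58 and 4.44 for Creld2 and 5.82, 5.82 and 6.72 for Hyou1. In both the LFG libraries lay apart from hADMSCs-Exo, and these 2 were the list members past the adjusted threshold without LFG 3 (edgeR adjusted p = 0.0306 and 0.0302). Manf, a secreted protein that rises in that stress, stood at 6.23, 6.57 and 7.08 against 4.78, 4.75 and 5.80 (-1.49, SE 0.37). Hspa5, the main Hsp70 of the compartment known as BiP, stood at 10.13, 10.49 and 9.84 against 8.96, 9.04 and 9.53 (-1.0, SE 0.30). For all 4 LFG 3 lay with LFG 1 and LFG 2. Ddit3, or CHOP, a transcription factor of the same response, stood at 2.59, 2.75 and 3.83 in LFG and 3.14, 2.16 and 2.61 in hADMSCs-Exo, with overlapping groups.

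Syvn1, which is outside that list and encodes the ubiquitin ligase Hrd1 that clears misfolded proteins from the endoplasmic reticulum, stood at 6.67, 7.61 and 7.73 in LFG and 5.61, 5.91 and 6.08 in hADMSCs-Exo (-1.55, SE 0.32). Its promoter and that of Creld2 are shown because both hold the element that stress factors of this compartment bind, CCAAT and CCACG 9 bases apart on either strand, a motif searched after the values had been seen. Creld2 is at chr15:88819396-88819645 and Syvn1 at chr19:6046326-6046575 of GRCm38.p6, both on the plus strand, and capitals mark the match.
Creld2: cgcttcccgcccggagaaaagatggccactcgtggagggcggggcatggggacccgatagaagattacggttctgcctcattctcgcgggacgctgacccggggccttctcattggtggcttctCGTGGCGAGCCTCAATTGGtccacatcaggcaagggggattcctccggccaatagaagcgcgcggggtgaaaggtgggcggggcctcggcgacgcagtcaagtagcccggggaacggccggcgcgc
Syvn1: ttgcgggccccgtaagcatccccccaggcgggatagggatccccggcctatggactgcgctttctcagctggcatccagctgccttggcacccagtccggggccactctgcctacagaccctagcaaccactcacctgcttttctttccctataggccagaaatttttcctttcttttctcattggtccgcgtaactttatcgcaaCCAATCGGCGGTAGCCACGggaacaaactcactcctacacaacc
The match begins 126 bases before the start of Creld2, where it lies on the other strand, and 44 bases before that of Syvn1. Of 24 list members with a promoter entry 6 (25.0%) held it, with 0.137% of all and 0.190% of tested genes.

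Immediate early genes, which cells switch on within minutes of a stimulus, had mostly negative log2 fold changes. Of 21 tested, 17 had a negative log2 fold change (median -0.54) and 4 were lower at the unadjusted threshold, beside 2.23% of all genes. Fos stood at 1.44, 1.89 and 3.73 in LFG and 0.97, 0.53 and 0.96 in hADMSCs-Exo (-1.95, SE 0.66). Nr4a1, an orphan nuclear receptor, stood at 1.80, 3.66 and 4.75 against 1.25, 1.65 and 1.79 (-2.31, SE 0.70). In both LFG 3 was the highest of the 3 LFG libraries, and without it the log2 fold changes were -0.89 and -1.46, so these differences leaned on LFG 3. The next gene did not. Fosl2 stood at 4.17, 5.18 and 3.74 against 3.22, 3.68 and 3.36 and passed the adjusted threshold without LFG 3 (adjusted p = 0.0474), as did Ier2 in the other direction, a gene named after its values were seen. The cAMP response element TGACGTCA stood in 3 of 19 promoters of the list (15.8%), in 2.03% of all and in 3.40% of those of tested genes.

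Metabolic genes were also among those that separated all 3 LFG libraries. Irs2, the adaptor that carries the insulin signal in the liver, stood at 4.58, 6.53 and 4.86 in LFG and 2.43, 3.28 and 2.98 in hADMSCs-Exo, a log2 fold change of -2.70 (SE 0.58, and -2.94 with edgeR adjusted p = 0.0278 without LFG 3). G6pc, the last enzyme of glucose release, stood at 8.14, 9.86 and 8.65 against 4.87, 7.68 and 7.22 (-2.10, SE 0.76). REG stood at 3.37, 3.93 and 2.71 for Irs2 and 5.0, 5.98 and 7.99 for G6pc. Ppp1r3g, a subunit that directs a phosphatase to glycogen, stood at 3.16, 7.39 and 3.22 against 2.97, 2.21 and 1.01 (-3.74, SE 1.30), where LFG 2 lay far above the other LFG libraries. Without LFG 2 the log2 fold change of Ppp1r3g was -0.95. Its relative Ppp1r3b was higher in hADMSCs-Exo, 6.77, 7.02 and 7.41 against 7.91, 8.82 and 7.98 (1.20, SE 0.33). Pck1, which makes phosphoenolpyruvate, stood at 10.71, 11.85 and 12.12 against 9.83, 11.67 and 11.50, with overlapping groups. Of the 23 genes of gluconeogenesis and glucose handling, 4 were lower and 1 higher at the unadjusted threshold, beside 2.23% and 0.761% of all genes, and the median was -0.22 (-0.16 without LFG 3). Without LFG 3 the adjusted threshold was passed by 2 genes lower, Irs2 and Pdk4, and 2 higher, Ppp1r3b and Gys2, beside 4.5% and 1.47% of all genes.

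Cytochromes split in direction. Cyp2c55 (ENSMUSG00000025002, chromosome 19 from 39007019 to 39042693, plus strand) stood at 4.81, 5.08 and 3.11 in LFG and 1.95, 1.37 and 1.60 in hADMSCs-Exo, a log2 fold change of -2.97 (SE 0.53) and -3.34 without LFG 3 (edgeR adjusted p = 0.00309). It was the 1 of 12337 genes (0.00811%) that passed in hADMSCs-Exo against REG, at -2.87 (SE 0.19, adjusted p = 0.00401), with REG at 4.45, 4.56 and 4.43. REG therefore lay beside LFG 1 and LFG 2 and above all hADMSCs-Exo libraries, and REG shares the weeks of recovery with hADMSCs-Exo. The call against REG was lost without REG 2, without hADMSCs-Exo 3 and with all 9 libraries in one fit. Cyp4a31 stood at 5.83, 5.61 and 3.44 in LFG and 2.92, 1.75 and 1.92 in hADMSCs-Exo (-3.04, SE 0.67), with LFG 3 nearest to hADMSCs-Exo. Cyp3a13 was higher in hADMSCs-Exo, 7.01, 8.05 and 7.39 against 8.84, 8.36 and 8.67 (1.07, SE 0.32). Cyp2c, Cyp4a and Cyp3a genes have close relatives between which reads could have been split. Of 42 tested P450 genes of drug metabolism, 22 had a positive and 20 a negative log2 fold change, with a median of 0.0045, while without LFG 3 the median was 0.74.

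Genes of fatty acid handling were among those higher in hADMSCs-Exo than in every LFG library. Acot3, a peroxisomal acyl-CoA thioesterase and PPAR-alpha target, stood at 0.70, 1.85 and 2.78 in LFG and 5.08, 4.40 and 4.86 in hADMSCs-Exo (2.84, SE 0.53, 7.16-fold higher) and at 5.86, 5.02 and 3.51 in REG. Acot4, its neighbour in function, stood at 4.60, 5.36 and 5.77 against 6.72, 6.23 and 6.22 (1.07, SE 0.32). Mogat2, which makes diacylglycerol, stood at -0.27, -0.99 and -1.09 against 1.14, 2.94 and 3.17 and at 2.77, 3.01 and 2.44 in REG, and was group-bound. Abhd15, a lipid droplet protein gene of the hydrolase fold, stood at 2.82, 3.29 and 2.42 against 4.0, 4.43 and 4.22 (1.33, SE 0.29). Cpt1a, the gate of fatty acids into mitochondria, stood at 8.05, 8.06 and 8.36 against 8.70, 8.83 and 8.77 (0.59, SE 0.21), without overlap. REG stood at 6.49, 6.07 and 5.74 for Acot4, 4.02, 3.89 and 4.51 for Abhd15 and 8.0, 8.26 and 8.74 for Cpt1a. Acot3, Acot4 and Abhd15 passed the adjusted threshold without LFG 3, and LFG 3 lay below hADMSCs-Exo for each. The PPAR-alpha list as a whole had no common direction, with 19 genes up and 15 down of 34 (median 0.02, and 0.19 without LFG 3), and Cyp4a10, another of its targets, stood at 7.34, 7.94 and 7.99 against 7.64, 7.70 and 7.59.

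Further genes higher in hADMSCs-Exo with all 3 LFG libraries below were Cbx7, a Polycomb chromatin reader (2.02, 2.41 and 2.24 in LFG, 3.41, 3.73 and 3.65 in hADMSCs-Exo and 1.37, SE 0.25), and Lzts3 (1.10, SE 0.21). Ggt6, a gamma-glutamyltransferase relative (1.28, SE 0.28), Rad51b, a recombination protein (2.07, SE 0.43), and Adamdec1, a metalloprotease of macrophages (1.98, SE 0.43), were of the same kind. REG stood at 3.48, 3.39 and 3.46 for Cbx7 and 4.93, 5.17 and 5.35 for Lzts3. Clic3, a chloride channel family member, stood at -1.15, -0.46 and -0.84 in LFG, 1.05, 1.67 and 2.67 in hADMSCs-Exo and -0.58, -0.26 and -0.13 in REG, and was group-bound. Its REG libraries lay with LFG and below hADMSCs-Exo. Cux2, a factor that is higher in female than in male liver, stood at -0.42, 1.0 and -1.09 in LFG and 5.85, 4.20 and 2.35 in hADMSCs-Exo, with few counts in LFG (group-bound) and a wide spread within hADMSCs-Exo. Lower in hADMSCs-Exo were Dynll1, a dynein light chain (-1.41, SE 0.29), Rasd1, a Ras-like protein induced by glucocorticoids (-2.12, SE 0.43), and Pkn3, a protein kinase (-1.91, SE 0.41). For each of these 3 the LFG libraries all lay above hADMSCs-Exo, and REG lay near hADMSCs-Exo, with log2 fold changes of hADMSCs-Exo minus REG between -0.12 and 0.43.

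Neutrophil genes had mostly positive log2 fold changes. Of 14 tested genes, 13 had a positive log2 fold change (median 1.96, and 1.80 without LFG 3), 9 were higher at the unadjusted threshold, beside 0.761% of all genes, and for 10 the groups did not overlap, beside 6.73% of all genes. Without 7 group-bound genes, 6 of 7 were positive (median 1.82), 5 were higher at the unadjusted threshold and 5 did not overlap. S100a9, a subunit of calprotectin, stood at 2.90, 2.46 and 2.19 in LFG and 3.75, 4.55 and 4.67 in hADMSCs-Exo (1.82, SE 0.34). S100a8, its partner, stood at 1.75, 0.69 and 0.85 against 2.71, 3.41 and 3.43 (2.06, SE 0.42). Ngp, a granule protein of immature neutrophils, stood at 1.67, 0.79 and -0.13 against 2.89, 3.68 and 3.85 (2.58, SE 0.54). These 3 passed the adjusted threshold without LFG 3 (edgeR adjusted p = 0.0318, 0.0399 and 0.0291), and LFG 3 lay below hADMSCs-Exo in all of them. Prtn3, proteinase 3 of the primary granules, stood at 1.93, 1.29 and 1.38 against 3.08, 3.94 and 5.99 (3.31, SE 0.78, and 2.04 to 3.79 when each replicate was left out). REG was split, with S100a9 at 4.80, 2.87 and 1.88 and Ngp at 3.80, 0.99 and 0.59: REG 1 lay with hADMSCs-Exo, REG 3 with LFG. The mean level of red blood cell genes was 3.42, 3.82 and 2.31 in LFG and 2.84, 3.94 and 4.83 in hADMSCs-Exo, with 0 of 8 separated, and its part in the neutrophil difference was not tested. In whole tissue, more cells of a type and more RNA per cell cannot be told apart, here and in the cell type genes that follow.

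**Figure D2:**
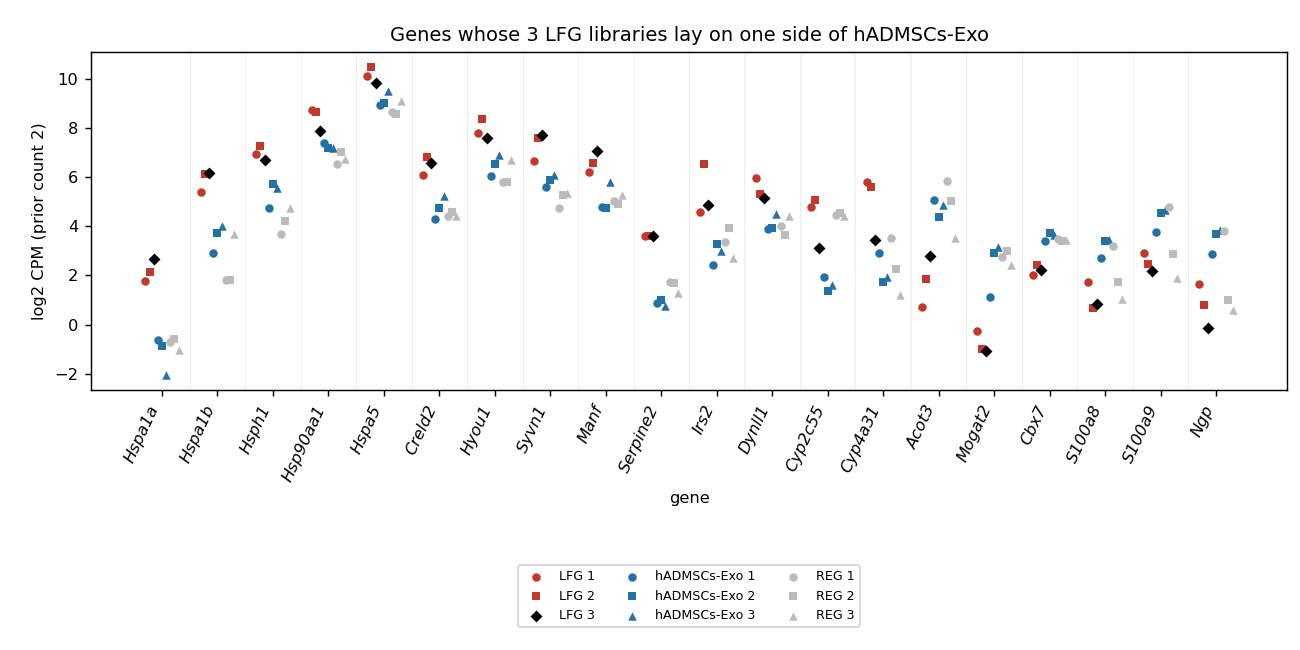
Log2 CPM of 20 genes in each library, with LFG in red and black (LFG 3), hADMSCs-Exo in blue and REG in grey. In every gene shown the 3 LFG libraries lie on the same side of the 3 hADMSCs-Exo libraries: chaperones, Serpine2, Irs2, Dynll1 and both P450 genes above, and Acot3, Mogat2, Cbx7 and the neutrophil genes below.

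Collagens were far higher in LFG 1 and LFG 2 than in hADMSCs-Exo, but LFG 3 carried less of them than hADMSCs-Exo did. Col1a1 (ENSMUSG00000001506, chromosome 11 from 94936224 to 94953042, plus strand), the main chain of scar collagen, stood at 8.01, 6.98 and 1.47 log2 CPM in LFG 1, 2 and 3 and at 2.56, 3.67 and 3.23 in hADMSCs-Exo. Its log2 fold change was -3.84 (SE 1.30, edgeR adjusted p = 0.805) with 6 libraries and -4.38 (SE 0.41, adjusted p = 0.00952) without LFG 3. Col3a1 stood at 9.10, 8.35 and 2.95 in LFG and 3.41, 4.80 and 4.26 in hADMSCs-Exo (-3.97, SE 1.28, and -4.51 without LFG 3). LFG 3 thus had the lowest level of the 6 libraries for both. REG stood at 4.25, 4.83 and 4.01 for Col1a1 and 5.90, 6.42 and 5.51 for Col3a1, above each hADMSCs-Exo library, with log2 fold changes of hADMSCs-Exo minus REG of -1.19 and -1.73 (adjusted p = 0.394 and 0.358).

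The matrix lists shared this pattern. Of 19 tested genes of fibrillar collagens and their assembly, 18 had a negative log2 fold change (median -2.14, and -2.57 without LFG 3), 10 were lower at the unadjusted threshold, beside 2.23% of all genes, and 0 separated the groups. Without LFG 3, 13 passed the adjusted threshold, all lower, beside 4.5% of all genes, and LFG 3 lay within the hADMSCs-Exo range for 3 of them and beyond it for 10. The mean of the list was 5.20, 4.87 and 1.87 in LFG and 2.19, 3.03 and 2.93 in hADMSCs-Exo. Basement membrane genes had a median of -1.16 (-1.56 without LFG 3), and 12 passed without LFG 3, with LFG 3 within the range for 2 and beyond for 10. Matricellular, elastic fibre and small proteoglycan genes had a median of -1.53 (-2.21), and 16 of 28 passed, with LFG 3 within the range for 5 and beyond for 11. Without group-bound genes 9 of 17 genes of fibrillar collagens were lower at the unadjusted threshold, beside 1.79% of all genes that were not group-bound. The calls without LFG 3 then were 13 of 19, 12 of 21 and 14 of 24 in these lists. No member of these 3 lists separated all 3 LFG libraries from hADMSCs-Exo.

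Named members had the same order of libraries, LFG 1 and LFG 2 far above hADMSCs-Exo and LFG 3 near or under it. Eln, the elastin of elastic fibres, stood at 4.39, 4.39 and 0.53 in LFG and 0.73, 0.99 and 0.76 in hADMSCs-Exo, and was -3.64 without LFG 3 (edgeR adjusted p = 0.00226). Col4a1, the collagen of basement membranes, stood at 7.48, 6.75 and 2.76 against 4.35, 4.72 and 3.74. Lum, the proteoglycan lumican, stood at 5.70, 5.43 and 1.38 against 1.57, 3.16 and 2.86. Thbs1, a matricellular activator of latent TGF-beta, stood at 3.77, 4.35 and 0.13 against -0.38, 0.80 and 1.33. LFG 3 was lowest of the 6 libraries for Eln, Col4a1 and Lum and within the range of hADMSCs-Exo for Thbs1. Sparcl1 (5.88, 5.57 and 0.62 against 1.63, 2.36 and 2.60) and Fstl1 (5.73, 5.14 and 1.22 against 1.63, 2.55 and 2.12), secreted relatives of the matricellular protein SPARC, were among the 10 genes of all with the smallest p lower without LFG 3. Ccn2, or connective tissue growth factor, stood at 3.95, 4.54 and 2.97 against 1.95, 3.26 and 2.39 (-1.36, SE 0.51), with LFG 3 within the range of hADMSCs-Exo.

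Enzymes that process collagen included the few matrix genes in which LFG 3 lay with LFG 1 and LFG 2. Lox, a crosslinking lysyl oxidase, stood at 3.66, 1.94 and -2.29 in LFG and -0.49, -0.36 and -0.09 in hADMSCs-Exo. Loxl2, group-bound with 6 libraries, stood at 4.02, 3.44 and -0.63 against -0.38, 1.23 and -0.42. LFG 3 was lowest for both genes. P4ha1, a prolyl hydroxylase subunit, stood instead at 5.13, 5.23 and 4.78 against 3.68, 4.39 and 4.0 (-1.03, SE 0.25, adjusted p = 0.0346 without LFG 3), with all LFG libraries above. P4ha2 stood at 2.72, 3.30 and 3.60 against 1.88, 2.29 and 2.58 (-1.0, SE 0.34), also without overlap. Of 14 tested genes of this list all 14 had a negative log2 fold change (median -0.85, and -1.13 without LFG 3), and 3 separated the groups, beside 5.52% of all genes. Among proteases and inhibitors (median -1.17, -1.54 without LFG 3), Ctsk, the collagen-degrading cathepsin K, stood at 2.56, 2.69 and 1.28 against -1.77, -0.15 and 0.71 and was group-bound. Ctsk, like Serpine2, separated the groups, while Mmp2, a gelatinase, stood at 4.57, 5.26 and -0.63 against 0.63, 1.75 and 1.68, with LFG 3 lowest. Timp1, also group-bound, overlapped at 2.11, 0.64 and -0.44 against -2.09, -0.60 and 0.76.

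Myofibroblast genes followed the collagens. Acta2, alpha smooth muscle actin and the usual mark of activated stellate cells, stood at 4.18, 4.02 and -0.44 in LFG and -1.08, 0.47 and 1.14 in hADMSCs-Exo (-3.78 with edgeR adjusted p = 0.0210 without LFG 3). LFG 3 lay between the hADMSCs-Exo libraries, and with 6 libraries Acta2 was group-bound. REG stood at 2.90, 3.49 and 2.06, above all 3 hADMSCs-Exo libraries. Of 15 tested genes of the list 14 were negative (median -1.21, and -2.04 without LFG 3). Of the 19 tested without LFG 3, 11 passed there, all lower, beside 4.5% of all genes, and LFG 3 lay with LFG 1 and LFG 2 for 1 of the 11. Without group-bound genes 9 of 15 passed, beside 3.77% of all genes that were not group-bound. Tpm2, a muscle tropomyosin, was the 1 tested member that separated the groups in 6 libraries, at 2.43, 2.61 and 2.32 against 0.25, 1.07 and 1.50 (-1.50, SE 0.42). Lrat, the vitamin A storing enzyme of quiet stellate cells, stood at 3.95, 4.02 and 1.11 against 1.86, 3.30 and 2.80, so LFG 3 was low for quiescent as well as for activated stellate genes. Genes of the quiescent list had a median of -0.75 (-1.18 without LFG 3) and those of TGF-beta and PDGF signaling -0.64 (-0.86). Tgfb1 itself stood at 4.49, 4.06 and 1.84 against 3.41, 3.85 and 3.44, with overlapping groups.

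Cell cycle genes were lower in hADMSCs-Exo than in LFG 1 and LFG 2, with the median of largest size among the 46 lists while group-bound genes were kept. Without those genes the median was -2.05, and that of fibrillar collagens was larger in size at -2.22. Of 34 tested genes 33 were negative (median -2.38, with -1.02 without LFG 1 and -2.89 without LFG 3), and 21 were lower at the unadjusted threshold, beside 2.23% of all genes. Without LFG 3, 27 passed, all lower, beside 4.5% of all genes. LFG 3 lay with LFG 1 and LFG 2 for 4 of the 27, Rrm2, Aurka, Ccne2 and the group-bound Kif20a, within the hADMSCs-Exo range for 4 and beyond it for 19. Without group-bound genes 17 of 25 were lower at the unadjusted threshold, and 23 of 30 passed without LFG 3, beside 1.79% and 3.77% of all genes that were not group-bound. Mki67, which marks dividing cells, stood at 6.53, 4.63 and 0.85 in LFG and 2.88, 2.45 and 2.10 in hADMSCs-Exo (-3.39 without LFG 3, edgeR adjusted p = 0.0226). Top2a, the topoisomerase of mitosis, stood at 5.40, 3.74 and -1.09 against 1.83, 2.01 and 1.44. Rrm2, a subunit of ribonucleotide reductase, stood at 5.99, 3.89 and 3.11 against 2.39, 3.02 and 2.16 (-2.34, SE 0.76), where all LFG libraries were higher. Aurka, a mitotic kinase, stood at 4.27, 2.34 and 1.69 against 1.10, 1.11 and 1.54 (-2.02, SE 0.70), and Ccne2, a cyclin of the entry into S phase, at 2.93, 2.34 and 1.38 against 0.57, 1.34 and 0.71 (-1.52, SE 0.51). Kif20a, a kinesin of cell division, stood at 3.93, 1.44 and -0.13 against -0.76, -0.48 and -1.21. LFG 1 was the highest library for each of these, so the difference was largest against LFG 1. REG lay near hADMSCs-Exo, with a list median of hADMSCs-Exo minus REG of -0.09.

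The p53 targets held a like split. Cdkn1a, the cell cycle inhibitor p21, stood at 5.20, 5.37 and 0.85 in LFG and 1.68, 3.37 and 2.76 in hADMSCs-Exo (-2.03, SE 1.0, and -2.55 with edgeR adjusted p = 0.0249 without LFG 3), with LFG 3 lowest of all. Trp53inp1, another target, stood at 7.19, 8.60 and 7.67 against 5.43, 7.07 and 6.29 (-1.55, SE 0.52), with all LFG libraries above. Gtse1, which takes p53 out of the nucleus in dividing cells, stood at 3.38, 1.85 and 1.11 against 0.45, -1.75 and 0.53, also without overlap, and was group-bound. Mdm2, the ligase that removes p53, stood at 5.54, 5.27 and 5.17 against 5.40, 4.90 and 5.0 and overlapped. The list had a median of -0.51, with 4 of 20 genes lower at the unadjusted threshold and 5 lower without LFG 3, beside 2.23% and 4.5% of all genes. Without group-bound genes these were 2 of 16 and 4 of 19.

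Genes of injured and fetal-like hepatocytes had mostly negative log2 fold changes. Afp, the fetal serum protein, stood at 3.99, 2.98 and 1.28 in LFG and 2.14, 1.44 and 1.79 in hADMSCs-Exo (-1.79 without LFG 3, edgeR adjusted p = 0.0356), with LFG 3 below hADMSCs-Exo. Gpc3, a fetal glypican, stood at 2.15, 2.53 and 0.34 against 0.01, -0.48 and 0.33 and was group-bound, with LFG 3 just above the highest hADMSCs-Exo library. Tubb6, a tubulin of injured liver, stood at 5.62, 4.20 and 3.60 against 3.17, 2.84 and 3.57 (-1.55, SE 0.54, and -1.86 to -0.73 when each replicate was left out), also by a narrow gap. Anxa2, an annexin of regenerating liver, stood at 6.45, 5.11 and 2.92 against 3.20, 3.89 and 4.22. The list median was -0.73 (-1.06 without LFG 3), and 7 of 18 passed without LFG 3, with LFG 3 on the side of LFG 1 and LFG 2 for 2, beside 4.5% of all genes (6 of 16 without group-bound genes). Cholangiocyte genes had a median of -0.87 (-1.38 without LFG 3), and for all 5 that passed without LFG 3, Epcam (3.07, 2.85 and 0.44 against 1.68, 1.03 and 1.44) and Prom1 (4.10, 3.65 and -0.63 against 0.17, -0.06 and 0.09) among them, LFG 3 lay beyond hADMSCs-Exo. Without group-bound genes 3 of 13 passed.

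Genes of recruited macrophages were low in LFG 3. Gpnmb, a glycoprotein of scar-associated macrophages, had 4388, 969 and 0 counts in LFG 1, 2 and 3 and 188, 284 and 358 in hADMSCs-Exo, so that hADMSCs-Exo lay between LFG 3 and the other LFG libraries. Its log2 fold change was -2.26 (SE 1.54) with 6 libraries and -2.81 (edgeR adjusted p = 0.0278) without LFG 3. When each replicate was left out it ran from -2.81 to -0.69. Trem2, a lipid receptor of the same cells, stood at 5.34, 4.34 and -2.29 against 1.73, 1.15 and 2.86. Gldn stood at 5.62, 4.94 and -0.84 against 4.89, 2.53 and 2.04. The list of recruited and scar-associated macrophages had a mean of 5.75, 4.76 and 1.13 in LFG and 4.05, 3.82 and 4.34 in hADMSCs-Exo. Its median log2 fold change was -0.79 (-1.33 without LFG 3 and 0.18 without LFG 1). Without LFG 3, 6 of 19 genes passed, all lower, beside 4.5% of all genes, and in all 6 LFG 3 lay beyond hADMSCs-Exo. Kupffer cell genes, those of the resident macrophages, had a median of 0.10, with 12 genes positive and 6 negative, and of -0.29 without LFG 3, with 7 positive and 11 negative. Clec4f stood at 7.21, 6.77 and 5.87 against 7.68, 7.14 and 7.28, and Cd5l at 9.13, 8.55 and 4.86 against 8.34, 7.80 and 8.21. Timd4, a phosphatidylserine receptor of long-lived Kupffer cells, was higher in hADMSCs-Exo, 2.38, 3.08 and 1.87 against 3.47, 3.68 and 4.01 (1.19, SE 0.36), with no overlap. LFG 3 had the lowest level of the 6 libraries for all of these.

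Lymphocyte genes had mostly positive log2 fold changes, and LFG 3 was lowest of the 6 libraries for most T and NK cell genes. All 22 tested T and NK cell genes had a positive log2 fold change (median 0.95, and 0.66 without LFG 3), and for 10 the groups did not overlap, beside 6.73% of all genes. Of these 22 genes 18 were group-bound, so the counts cannot be read as a difference of the list, and of the 4 others 2 did not overlap and 0 reached the unadjusted threshold. Icos, a costimulator of T cells and group-bound, stood at 0.06, -0.99 and -0.63 in LFG and 1.05, 0.94 and 0.92 in hADMSCs-Exo. Cd3e, a chain of the T cell receptor complex and group-bound with 6 libraries, stood at 0.22, 0.23 and -2.29 against 0.51, 1.03 and 0.71. The mean of the list was 0.63, 0.87 and -1.13 in LFG and 1.22, 1.46 and 1.46 in hADMSCs-Exo, so LFG 1 and LFG 2 lay a little below hADMSCs-Exo and LFG 3 far below. Of 14 B and plasma cell genes 13 were positive and 3 higher at the unadjusted threshold, beside 0.761% of all genes, and 0 passed without LFG 3. Those 3 were group-bound, as were 8 of the 14, and of the 6 others 1 did not overlap. Cd79a, of the B cell receptor, stood at -0.06, -0.58 and -0.84 against 0.83, 1.73 and 1.50, and Pax5, the factor of B cell identity, at -2.32, -1.16 and -1.09 against 0.17, 0.40 and -0.30. In these genes LFG 3 lay with LFG 1 and LFG 2, but Ms4a1, which encodes CD20 and was group-bound, overlapped at -0.69, -0.84 and -1.09 against 0.57, 0.33 and -1.44. Most lymphocyte genes had levels near 1 CPM and so few reads.

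Of 23 chemokines and cytokines 2 were higher at the unadjusted threshold, beside 0.761% of all genes, and 4 lay above LFG without overlap, beside 6.73%. Without LFG 3 the calls were 2 others, Ccl6 and Cx3cl1, both lower in hADMSCs-Exo, beside 4.5%. Of the 13 that were not group-bound 2 were higher at the unadjusted threshold and 3 lay above without overlap. Il1b, an interleukin of activated macrophages and neutrophils, stood at 0.78, 1.38 and 1.11 in LFG and 2.17, 2.66 and 1.87 in hADMSCs-Exo (1.19, SE 0.38), and Ccl5, a T cell chemokine, at 2.39, 3.51 and 0.44 against 4.14, 4.26 and 4.35 (1.65, SE 0.66). All LFG libraries lay below hADMSCs-Exo for both, and neither passed without LFG 3 (edgeR adjusted p = 0.0988 and 0.0683). Ccl2, which draws monocytes, overlapped at 1.61, 0.69 and 1.17 against 0.73, 0.75 and 0.09. MHC class II genes had a median of 0.38, which turned to -0.09 without LFG 3, and H2-Aa, a chain of the class II molecule, stood at 6.89, 7.29 and 3.87 against 5.98, 7.37 and 7.18. H2-Ob, of the DO molecule of B cells, was the 1 member past the unadjusted threshold and was group-bound. Interferon-stimulated genes had a median of 0.14 (0.03 without LFG 3, and -0.42 to 0.54 when each replicate was left out), with 0 of 25 past the unadjusted threshold. Endothelial genes had a median of -0.37 (-0.70 without LFG 3 and 0.05 without LFG 2) and 0 of 21 past the unadjusted threshold, and Stab2, of sinusoidal endothelium, stood at 4.34, 4.63 and 4.12 against 4.36, 5.42 and 4.57.

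**Figure D3:**
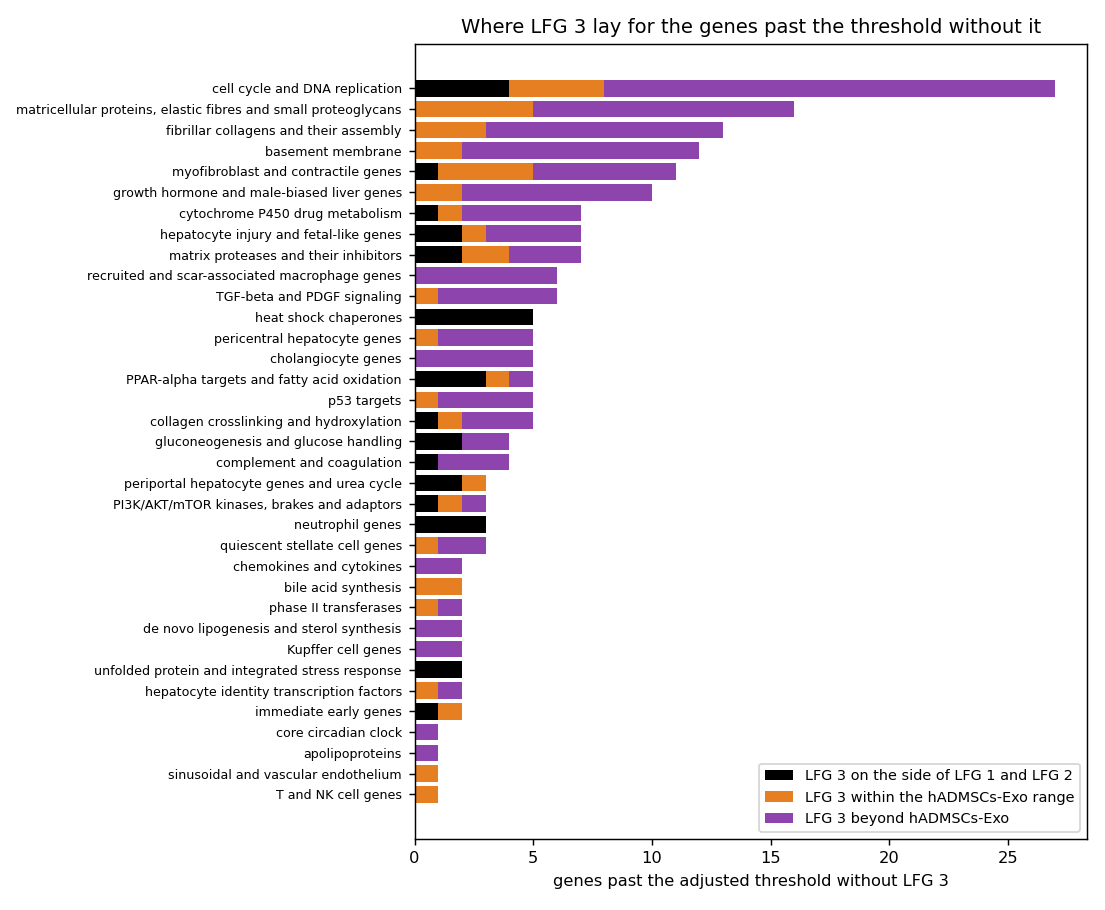
Number of genes of each list past the adjusted threshold without LFG 3, on the horizontal axis, split by where the level of LFG 3 lay. Cell cycle and matrix lists are the longest bars and are mostly genes in which LFG 3 lay beyond hADMSCs-Exo, while the bars of heat shock, unfolded protein and neutrophil genes hold only genes in which LFG 3 lay with LFG 1 and LFG 2.

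The pericentral hepatocyte genes named here were lower in LFG 1 and LFG 2 than in hADMSCs-Exo and highest in LFG 3. Glul, the glutamine synthetase of the last hepatocytes before the central vein, stood at 6.64, 7.37 and 10.66 log2 CPM in LFG and 9.55, 10.13 and 10.38 in hADMSCs-Exo, 0.76 (SE 0.99) with 6 libraries and 3.02 (edgeR adjusted p = 0.0185) without LFG 3. Oat, ornithine aminotransferase, stood at 7.39, 6.78 and 10.42 against 9.50, 9.82 and 10.16 (2.74, adjusted p = 0.0182 without LFG 3). Cyp2e1, which activates CCl4, stood at 9.52, 11.18 and 13.53 against 12.65, 13.02 and 13.13 (2.37, adjusted p = 0.0496). For all 3 LFG 3 exceeded every hADMSCs-Exo library. REG stood at 9.25, 9.51 and 9.57 for Glul, 8.69, 8.86 and 8.83 for Oat and 12.13, 12.34 and 12.35 for Cyp2e1. The list of 21 genes had a median of 0.34 over 20 tested and 0.89 without LFG 3. There 5 passed, all higher, beside 1.47% of all genes, and LFG 3 lay within the range for 1 and beyond for 4. Periportal genes, at the other end of the lobule, had a median of 0.31 (0.51 without LFG 3) and 6 of 25 without overlap, all higher, beside 6.73% of all genes. Hal, the histidine-degrading enzyme, was lower in every LFG library, 6.56, 7.62 and 8.22 against 9.08, 8.79 and 8.90 (1.29, SE 0.41, adjusted p = 0.0336 without LFG 3), as was Ass1 of the urea cycle, by little (10.59, 11.26 and 11.12 against 11.58, 11.46 and 11.31).

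Among growth hormone dependent, male-biased genes the sign of the difference changed between settings. Mup7, of the major urinary proteins, stood at 0.74, 2.10 and 13.46 in LFG and 4.70, 4.35 and 5.80 in hADMSCs-Exo, so its log2 fold change was -6.80 (SE 3.04) with 6 libraries and 3.60 (edgeR adjusted p = 0.0259) without LFG 3. Mup13 went from -1.24 to 2.93 in the same way, and stood at 3.06, 2.88 and 8.66 in LFG and 5.87, 5.80 and 5.99 in hADMSCs-Exo. Reads of these near-identical genes could have been split among them. Elovl3, a fatty acid elongase that is high in male liver, stood at -2.66, -2.14 and 6.20 against 1.78, 3.45 and 2.35, with 1, 2 and 830 counts in LFG. With all 6 libraries limma voom gave log2 fold changes of 3.01 for Mup7, 2.79 for Mup13 and 5.22 for Elovl3, and the replicate block 1.32, 1.43 and 2.72. In each of these 3 genes hADMSCs-Exo lay between LFG 3 and the pair of LFG 1 and LFG 2. The list of 31 genes had a median of -0.35 and 0.81 without LFG 3, where 7 passed higher and 3 lower, beside 1.47% and 4.5% of all genes, and 6 and 2 of 28 without group-bound genes. Ghr, the growth hormone receptor, stood at 7.37, 8.28 and 9.36 against 8.81, 9.11 and 9.08, with LFG 3 highest.

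Other genes called without LFG 3 had LFG 3 on or past the level of hADMSCs-Exo. Cyp2c38, of the Cyp2c cluster, stood at 1.40, 2.20 and 5.58 in LFG and 5.71, 5.23 and 5.58 in hADMSCs-Exo (3.72, edgeR adjusted p = 0.00868 without LFG 3), and at 4.23, 3.88 and 3.90 in REG. Cyp8b1, which sets the share of cholic acid among bile acids, stood at 3.86, 4.22 and 7.44 against 7.59, 6.87 and 6.74 (3.08, adjusted p = 0.0104), while Cyp7a1, the rate-limiting enzyme of their synthesis, stood at 5.40, 7.71 and 6.66 against 8.12, 7.17 and 8.52 and overlapped. Sytl1, of vesicle transport, stood at 0.55, 1.08 and 3.59 against 3.67, 3.71 and 3.46. Among genes lower without LFG 3, Akr1c18, a hydroxysteroid dehydrogenase, stood at 6.31, 4.64 and -1.77 against -0.27, -0.90 and -2.05, and Pygb, the brain form of glycogen phosphorylase, at 5.07, 5.10 and 0.92 against 3.29, 3.19 and 3.33. Sult2a2, a sulfotransferase that is high in female liver, had 867, 687 and 0 counts in LFG, 3, 2 and 5 in hADMSCs-Exo and 436, 1 and 4 in REG, and passed the filter on low counts only without LFG 3. Sult2a2 and Akr1c18, which had 12, 7 and 2 counts in hADMSCs-Exo, were group-bound. Reads of Akr1c and Sult2a relatives could have been split between them.

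**Figure D4:**
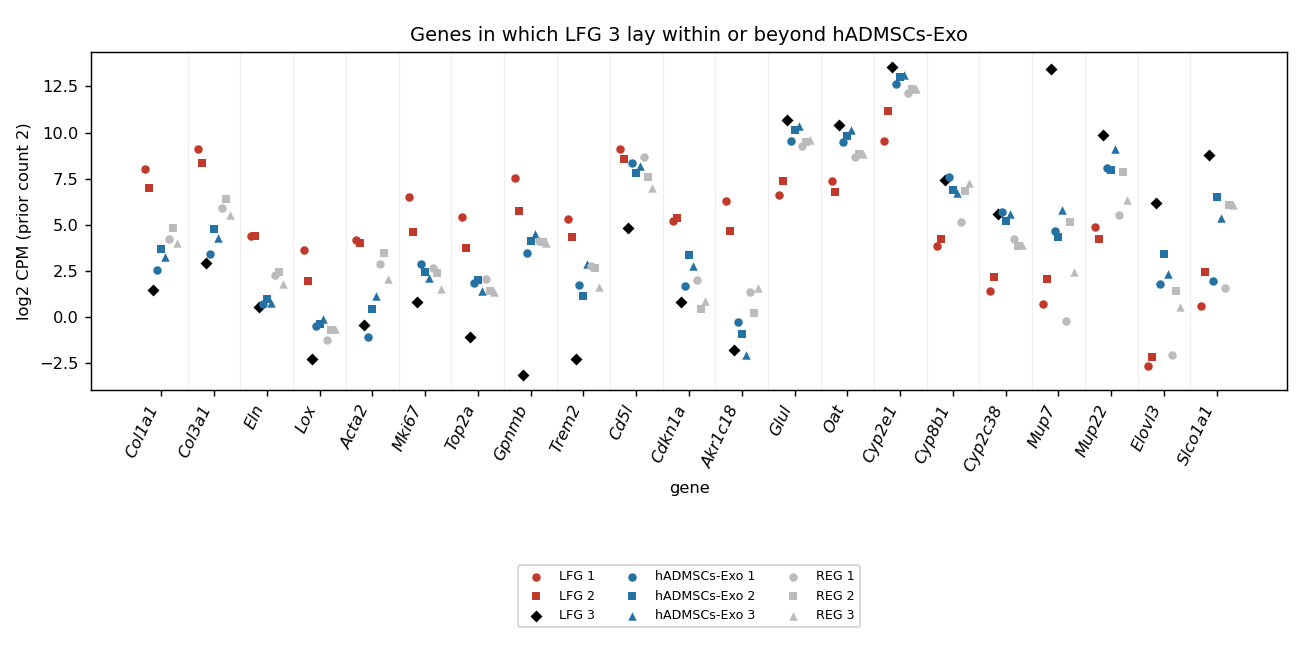
Log2 CPM of 21 genes in each library, with LFG in red and black (LFG 3), hADMSCs-Exo in blue and REG in grey. For each gene LFG 3 lies within or beyond the 3 hADMSCs-Exo libraries: below them or among them for matrix, cell cycle and macrophage genes, and above or among them for pericentral, Mup and bile acid genes.

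Acute phase genes, which hepatocytes raise under inflammation, had a positive log2 fold change for 25 of 30 genes (median 0.58, and 0.69 without LFG 3 and 0.17 without hADMSCs-Exo 3), and 2 were higher at the unadjusted threshold, beside 0.761% of all genes, and 0 passed without LFG 3. Orm2, an orosomucoid, stood at 7.95, 6.73 and 7.95 in LFG and 8.39, 8.04 and 10.96 in hADMSCs-Exo (2.09, SE 0.84). hADMSCs-Exo 3 was far the highest library, and without it the log2 fold change of Orm2 was 0.57. Complement and coagulation genes were positive for 33 of 37 (median 0.28, and 0.62 without LFG 3), with 0 past the unadjusted threshold and, without LFG 3, 3 called higher and 1 lower, beside 1.47% and 4.5% of all genes, and F2, prothrombin, stood at 9.88, 10.66 and 11.11 against 10.80, 10.97 and 11.21. Apolipoproteins had a median of -0.13, and of 0.57 without LFG 3. Mt1, the metallothionein that binds zinc, the 1 gene of 18 for metallothioneins, zinc and iron (median -0.05, and 0.14 without LFG 3) past the unadjusted threshold, was higher in hADMSCs-Exo than in every LFG library, 5.54, 7.32 and 6.25 against 7.89, 8.07 and 9.05 (1.85, SE 0.54, adjusted p = 0.107 without LFG 3 in edgeR). Slc22a7, a transporter of organic anions, was lower, 4.81, 4.42 and 5.95 against 3.60, 2.55 and 3.70 (-1.87, SE 0.48), the 1 of 26 uptake and efflux transporters past the unadjusted threshold.

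Lists tied to the signaling and lipid questions of the study had small medians. The PI3K/AKT/mTOR list holds mRNA of the kinases, their brakes and adaptors, compared here with LFG. The study's evidence on that pathway was of other kinds too: its matrix and integrin genes, protein blots, and qRT-PCR of AKT and mTOR, also against REG. Of 28 PI3K/AKT/mTOR genes, 11 had a positive and 17 a negative log2 fold change (median -0.09, and -0.14 without LFG 3), and Irs2 was the 1 that separated the groups. Without LFG 3 the calls were 1 higher and 2 lower, beside 1.47% and 4.5% of all genes. Akt1, the kinase itself, stood at 6.08, 6.08 and 5.82 in LFG and 5.89, 6.28 and 6.17 in hADMSCs-Exo (0.10, SE 0.19), and Mtor at 6.02, 5.92 and 5.74 against 6.44, 5.50 and 5.45 (-0.05, SE 0.30), both overlapping. Choline, phosphatidylcholine and methionine genes had a median of 0.11 (0.33 without LFG 3), with 0 of 31 past the unadjusted threshold and 4 without overlap, all higher in hADMSCs-Exo, beside 6.73% of all genes. Chpt1, of the choline route, stood at 5.21, 6.47 and 7.24 against 7.17, 7.49 and 7.34. Lipogenic and sterol genes had a median of 0.10 (0.30 without LFG 3, and -0.11 to 0.44 when each replicate was left out), with 0 of 34 past the unadjusted threshold. Without LFG 3, 1 was called in each direction, the higher one group-bound. Fasn, fatty acid synthase, stood at 8.33, 9.70 and 9.30 against 8.43, 9.35 and 8.60. These values do not show that the pathways were alike, since the SE was larger than the log2 fold change for Akt1, Mtor and Fasn, though not for Chpt1.

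**Figure D5:**
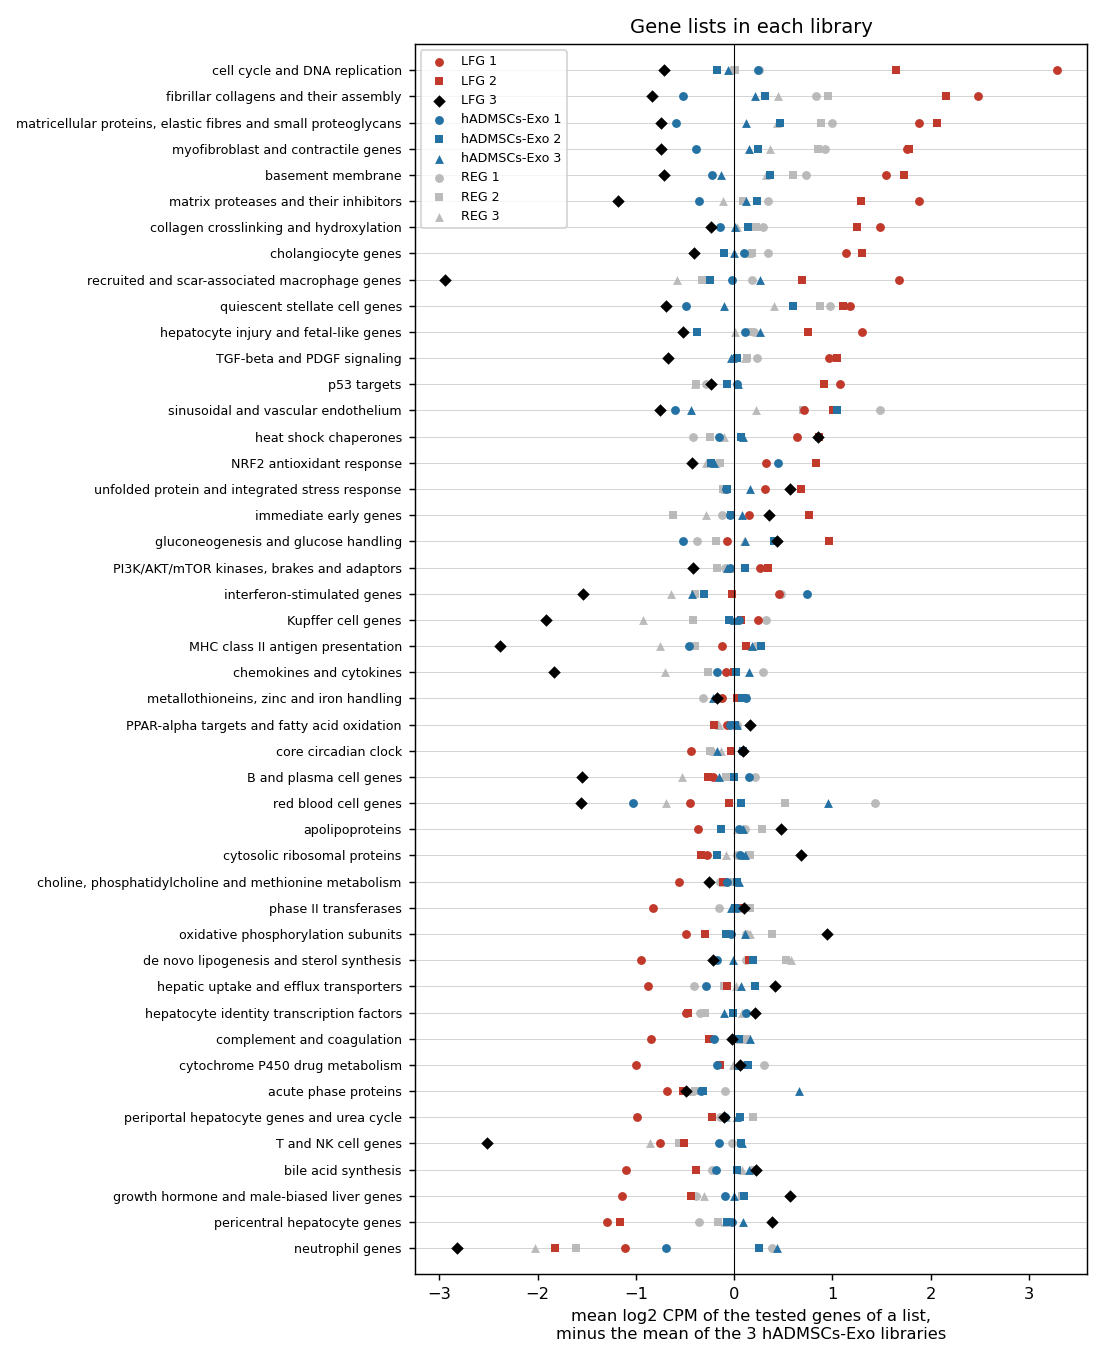
Mean log2 CPM of the tested genes of each of the 46 lists in each library, minus the mean of the 3 hADMSCs-Exo libraries. LFG 1 and LFG 2 (red) lie to the right for cell cycle and matrix lists and to the left for pericentral genes. LFG 3 (black) lies with them for heat shock, unfolded protein and neutrophil genes but on the other side of 0 for matrix, cell cycle and pericentral lists.

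In the remaining lists few genes, or 0, passed the unadjusted threshold. Oxidative phosphorylation subunits had a median of -0.23 with 6 libraries and 0.40 without LFG 3, where all 44 were higher in hADMSCs-Exo, and their mean was 6.16, 6.35 and 7.60 in LFG and 6.62, 6.57 and 6.76 in hADMSCs-Exo. Cytosolic ribosomal protein genes went from -0.08 to 0.31 with means of 7.30, 7.24 and 8.25 and 7.64, 7.41 and 7.69. LFG 3 was thus the highest library for both kinds of short, abundant transcripts, and 0 genes of either list passed the unadjusted threshold. The core clock had a median of -0.11 (0.09 without LFG 3), Nr1d1 stood at 5.0, 4.12 and 5.54 against 5.06, 3.96 and 3.39, and Arntl, which it represses, at 2.76, 2.65 and -3.11 against 0.25, 2.17 and 0.96, with a count of 0 in LFG 3. The time of day of the dissections is not given in the sources used here. The E-box CACGTG stood in 5 of 16 clock promoters (31.3%, with 8.09% of all and 11.6% of tested genes), and the D-box TTATGTAA in 1 (6.25%, with 1.11% of all and 0.741% of tested genes). Of 25 NRF2 targets 23 had a negative log2 fold change (median -0.47), and 17 without LFG 3 (-0.18), while without LFG 2 the median was -0.08. Medians with 6 libraries, and without LFG 3 in parentheses, were for phase II transferases 0.09 (0.33), bile acid genes 0.18 (0.76) and hepatocyte transcription factors 0.27 (0.58), with 0 past the unadjusted threshold in these 4 lists. Without LFG 3 the adjusted threshold was passed by 2 bile acid genes and 2 transcription factors, all higher in hADMSCs-Exo, and by 1 phase II gene in each direction, the lower one group-bound.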

How the data were processed

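Whole liver RNA was sequenced (NEBNext Ultra libraries) and the authors deposited raw counts per gene (21936 genes), made per the submitters' notes with cutadapt 1.15, HISAT2 2.0.5 and HTSeq 0.9.1 on GRCm38, and FPKM, which were rescaled counts and not used. Whether counting used strand is not given in the sources used here. The count columns were fitted in edgeR 4.0.16 (R 4.3.3) with TMM factors, filterByExpr and the quasi-likelihood test over the 6 libraries compared, and again without LFG 3. A call needed an adjusted p (Benjamini-Hochberg) below 0.05 and a log2 fold change of 1 or more in size. DESeq2 1.42.0, limma voom 3.58.1 and the settings of the closing section were alternatives. The tests were also run on simulated counts with known changes, and the outcome is not given here. Counts of list members without genes that met the filter only with the help of their higher group were added after the data were seen. Members and lists were chosen with earlier results of these data known. Genes were named from key members of 46 lists (at most 4 more a list, by smallest unadjusted p, where groups did not overlap), from the 12 (6 libraries, no overlap) or 10 (without LFG 3) smallest p values each way, and from up to 5 each way, at a mean log2 CPM of 3 or more, in which LFG 3 lay farthest from the nearer of LFG 1 and LFG 2. A part of these is described, and some are not reported here. Deviations of same-numbered LFG and hADMSCs-Exo libraries from their group means correlated at 0.101, 0.308 and 0.180. This pairing comes from the data and not from the labels. Promoter sequences are from RefSeq.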

Additional observations from a re-analysis of the deposited data

Results flagged for a closer look

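Cyp2c55 was singled out because its differences from LFG in both recovered groups differed from each other. Its log2 fold change was -2.97 in hADMSCs-Exo minus LFG and -0.07 in REG minus LFG, and the difference between them, hADMSCs-Exo minus REG, was -2.87 (edgeR adjusted p = 0.00401, 1 call among 12337 genes). All 3 hADMSCs-Exo libraries lay below all 3 REG libraries. Without REG 2, without hADMSCs-Exo 3 or with all 9 libraries in one fit the gene no longer passed, and reads could have been shared with other Cyp2c genes.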

How the results depend on the processing

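The adjusted count of hADMSCs-Exo against LFG was 0 with RLE size factors, without a filter on low counts, with at least 10 counts in every library and under the replicate block. It was 60 in DESeq2, 1 in limma voom, 1 with all 9 libraries in one fit and 0 to 773 when each replicate was left out, with 773 only without LFG 3. With LFG 3 left out it was 1336 in DESeq2, 713 in limma voom, 769 with RLE size factors and 599 with at least 10 counts in every library. The unadjusted count of 374 became 1359 in limma voom, 601 without a filter, 575 with all 9 libraries, 747 with no limit on fold change and 221 to 1774 when each replicate was left out. With the replicate block it was 266, and the adjusted counts stayed at 0 against LFG and 1 against REG. The block was not run without LFG 3. The count against REG was 1, and 67 in DESeq2, 3 in limma voom, 4 without a filter, 0 with all 9 libraries and 0 to 1 when each replicate was left out. The cause of these differences was not tested.

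Direction was followed for 120 of the named genes. Of the named genes left out of this count some turned, as Mup11, from -3.37 to 3.99 without LFG 3, and Apoa1, from -0.23 to 0.76. Of the 120, 112 kept their direction in all 13 settings. In limma voom the log2 fold change was 5.22 for Elovl3, -0.13 for H2-Aa, 2.79 for Mup13 and 3.01 for Mup7. Under the replicate block it was 0.38 for Cd5l, 2.72 for Elovl3, 1.43 for Mup13, 1.32 for Mup7 and 0.033 for Tgfb1. When each replicate was left out it ran from -0.73 to 0.46 for Cd5l, from -0.77 to 0.025 for Ddit3, from -2.56 to 6.33 for Elovl3 and from -0.14 to 0.87 for H2-Aa. It ran from -0.42 to 0.14 for Mtor, from -1.81 to 2.93 for Mup13, from -7.39 to 3.60 for Mup7 and from -0.71 to 0.21 for Tgfb1. The medians of 32 of 46 lists stayed within 1 SD in every setting, which does not mean that they kept their sign. When each replicate was left out, medians of several lists crossed 0. Among them were recruited macrophages (-1.33 to 0.18), Kupffer cells (-0.29 to 0.49) and endothelium (-1.13 to 0.05). So did growth hormone genes (-0.79 to 0.81), P450 genes (-0.25 to 0.74) and PI3K/AKT/mTOR genes (-0.14 to 0.01).

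LFG 3 stood apart from its group. The common biological coefficient of variation was 0.408 in this comparison and 0.241 against REG. Without LFG 3 the group rests on 2 libraries. Total counts of 13837445 to 17261497 left few reads on lymphocyte genes.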
